A study of Mus musculus with 5 samples.

Results

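Laminin-332 and the hemidesmosome anchor keratinocytes to the basement membrane, and 7 of their genes are described here in mouse B9 carcinoma cells treated with 2 inhibitors of the kinase BRAF. The genes are Lama3, Lamb3, Itga6, Itgb4, Itga3, Col17a1 and Dst. They were chosen by name, with earlier results of these data known, and every probe set annotated to one of these symbols alone was taken. This gave 14 of the 45101 probe sets of the array, for 7 of the 18193 genes that have such a probe set. B9 is a line from a cutaneous squamous cell carcinoma, and its genotype is labelled HRAS-Q61L, a mutation that keeps RAS active upstream of the RAF kinases. Cells of this 1 line were kept for 17 h with 1 µM PLX4032 (vemurafenib), on 2 arrays, with 1 µM PLX7904, on 2 arrays, or with the vehicle dimethyl sulfoxide (DMSO), on 1 array. All groups carry the HRAS change, so no group shows these genes without it. The labels state 0.2% DMSO for the vehicle, while the volumes in the protocol amount to 0.02%. The arrays are called biological replicates without word on how the cultures were separated, and the spread between arrays that the p-values rest on may therefore be technical.

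Laminin-332 is a secreted trimer that basal keratinocytes lay down under themselves. Lama3 and Lamb3 encode its alpha and beta chains. On the cell side the integrin made of the Itga6 and Itgb4 products binds it within the hemidesmosome, where Col17a1 (collagen XVII, a transmembrane protein) and Dst (whose epithelial product BPAG1e is a plaque protein) link the receptor to keratin filaments. The integrin alpha chain from Itga3 pairs with the integrin beta chain from Itgb1 and binds laminin-332 outside hemidesmosomes. In skin, loss of these proteins causes blistering, and carcinoma cells are known for depositing laminin-332 at invading edges.

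The stretches before the annotated transcript starts of Lamb3 and Col17a1 are shown because both genes passed the test against DMSO below and RefSeq windows were at hand for them (build GRCm38.p6, 5′ to 3′ on the gene's strand). Windows ran from 250 bases before a start to 50 after it, and 7 were matched by symbol for Lamb3, Col17a1, Itga3 and Dst. The AP-1 motif (TGANTCA, searched on both strands) and the TATA box (TATAAA, both strands, a motif chosen after the sequences were seen) do not overlap in their letters. Only the 250 bases before the start are printed, in lower case with matches to TATAAA in capitals. The Lamb3 stretch lies at chr1:193301744-193301993 (plus strand) and the Col17a1 stretch at chr19:47692043-47692292 (minus strand). For Lamb3 the first of 2 windows is printed. It lies within the gene's span, which begins at chr1:193294353, so it does not precede the outermost start.
Lamb3: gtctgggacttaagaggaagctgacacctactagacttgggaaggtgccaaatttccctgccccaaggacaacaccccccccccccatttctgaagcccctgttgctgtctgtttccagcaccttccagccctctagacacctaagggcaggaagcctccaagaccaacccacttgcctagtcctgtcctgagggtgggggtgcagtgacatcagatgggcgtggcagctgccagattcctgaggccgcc
Col17a1: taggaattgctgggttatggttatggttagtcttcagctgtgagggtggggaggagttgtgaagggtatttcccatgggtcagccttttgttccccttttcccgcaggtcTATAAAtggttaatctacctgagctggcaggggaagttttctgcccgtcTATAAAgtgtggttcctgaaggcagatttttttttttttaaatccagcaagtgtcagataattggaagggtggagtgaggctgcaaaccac

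Col17a1 held TATAAA at 2 places, whose first bases lie 140 and 91 bases before the start. TATAAA was present in 13.6% of all 32851 windows. Neither motif was present in the 2 windows of Lamb3 or in the 2 of Dst. The AP-1 motif was in 1 of the 7 windows, against 7.81% of all windows. That window belongs to a second start of Itga3, and the match begins at base 13 of the transcript (chr11:95069170-95069196, minus strand, match in capitals). It is shown as the only AP-1 match in these 7 windows. No window of Lama3, Itga6 or Itgb4 was searched. A match is a description of letters and not a site in use.
Itga3: ggctggtgccTGAATCActggcttgct

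The values are MAS5 signals, 1 number per probe set and array on a linear scale, which the authors scaled so that every array has the same trimmed mean. The median signal of an array was 44.1 to 51.9, and log2 signals of arrays correlated at 0.979 to 0.988. Differences were taken on log2(signal + 3.34), which understates the change of dim probe sets, and tested with limma over all 19755 probe sets with 1 gene symbol and a mean signal of at least 47.4. Of the 14 probe sets, 13 were tested. A probe set passed at a Benjamini-Hochberg adjusted p under 0.05, and intervals are unadjusted, at 95%. For DMSO, with 1 array, the variance comes from the treated arrays. Keratinocyte markers were bright: all 9 measured were above the signal filter, with Krt14 at 20571 to 23714 and the basal regulator Trp63 at 4832 to 5629. Of 6 immune markers 4 were below the filter, and of 5 endothelial markers 4. In RNA from whole cultures, fewer cells of a type and less RNA per cell cannot be told apart.

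Positions are given for 6 of the 7 genes. On GRCm38.p6 Lamb3 spans chr1:193294353-193343878, Dst chr1:33907888-34308662, Itga6 chr2:71786886-71858427, Itga3 chr11:95044475-95076844, Itgb4 chr11:115974725-116008412 and Col17a1 chr19:47646341-47692042. The probe sets read transcripts near their 3′ ends, so splice forms that share an end are not separated.

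**Figure D1:**
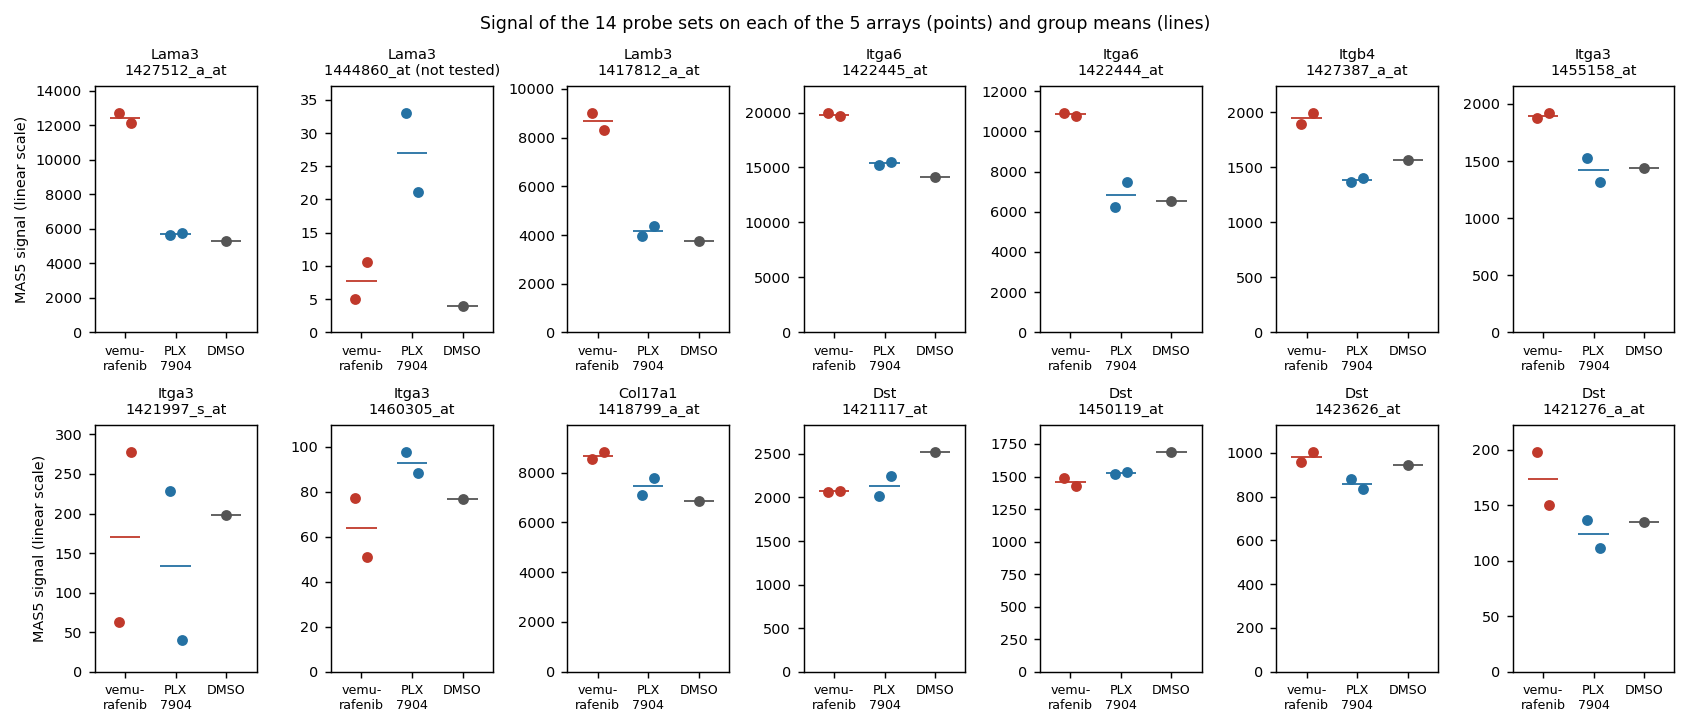
MAS5 signal (vertical axes, linear, from 0) of each of the 14 probe sets on the 2 vemurafenib arrays, the 2 PLX7904 arrays and the DMSO array, with a line at each group's mean. The bright probe sets of Lama3, Lamb3 and Itga6 stand high on both vemurafenib arrays alone, whereas 1421997_s_at of Itga3 reads 62.6 and 277 on the 2 vemurafenib arrays.

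Vemurafenib was set against DMSO to ask how a BRAF inhibitor that can raise MAPK signalling in RAS-mutant cells moves these genes. Both laminin chains, Itga6 and Col17a1 were higher with vemurafenib. With limma, 5 of the 13 tested probe sets, from 4 of the 7 genes, were higher (adjusted p under 0.05) and 0 were lower. Over all probe sets tested, 7.15% passed in either direction and 3.74% passed as higher. Higher calls made up 52.3% of all calls, and 72.4% with median centring of each array. The median log2 difference of the 13 was 0.34, against -0.07 over all probe sets tested. Arrays of the 2 groups did not overlap for 11 of the 13, but this was true of 80.5% of all probe sets, since DMSO has 1 array.

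Lama3 (1427512_a_at) read 12717 and 12149 with vemurafenib, 5664 and 5748 with PLX7904, and 5285 with DMSO. Both vemurafenib arrays lie far above the other 3, which lie close together. Against DMSO the difference was 2.35-fold (95% interval 2.09 to 2.64), with limma adjusted p = 2.7e-05. It ranked 113 from the top among the 19755 probe sets by log2 difference. Lamb3 (1417812_a_at) read 9008 and 8331 with vemurafenib, 3961 and 4362 with PLX7904, and 3752 with DMSO. The order of the groups is that of Lama3, with no overlap between vemurafenib and the rest. The rise over DMSO was 2.31-fold (2.0 to 2.66), with adjusted p = 1.26e-04 and rank 121. The log2 differences of the 2 chains, 1.23 (SE 0.07) for Lama3 and 1.21 (SE 0.09) for Lamb3, differed by less than either standard error.

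Among the integrin genes, Itga6 passed with both of its probe sets. Probe set 1422445_at read 19946 and 19643 with vemurafenib, 15212 and 15517 with PLX7904, and 14174 with DMSO. The vemurafenib arrays lie above the rest and the replicates of each compound lie close together. The rise over DMSO was 1.40-fold (1.27 to 1.54, limma adjusted p = 0.00256). Probe set 1422444_at read 10910 and 10789 with vemurafenib, 6218 and 7494 with PLX7904, and 6556 with DMSO. Here the PLX7904 arrays lie on either side of the DMSO array. The rise over DMSO was 1.65-fold (1.41 to 1.94, adjusted p = 0.00379), and its interval overlapped that of the other probe set. Itgb4, the partner chain of Itga6, read 1893 and 1990 with vemurafenib, 1364 and 1397 with PLX7904, and 1562 with DMSO (1427387_a_at). Its vemurafenib arrays were above DMSO and its PLX7904 arrays below. Against DMSO it was 1.24-fold (1.06 to 1.46) and did not pass (adjusted p = 0.104). With median centring of each array its log2 difference of 0.31 became 0.40 and passed (adjusted p = 0.0464).

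Itga3 did not pass against DMSO with any of its 3 probe sets, whose intervals overlapped. The brightest, 1455158_at, read 1876 and 1920 with vemurafenib, 1523 and 1319 with PLX7904, and 1438 with DMSO. Vemurafenib was above the rest and the PLX7904 arrays lay around DMSO. Its 1.32-fold difference from DMSO (1.10 to 1.58) did not pass (limma adjusted p = 0.0717), though it passed with median centring (adjusted p = 0.0342). The dimmer 1421997_s_at read 62.6 and 277 with vemurafenib, 228 and 40.3 with PLX7904, and 198 with DMSO. Its replicates differed by 2.09 and 2.41 log2 units, and its log2 difference from DMSO was -0.56 with an interval of -2.61 to 1.49. This probe set cannot place Itga3 in either direction. The dimmest, 1460305_at, read 77.2 and 50.9 with vemurafenib, 97.5 and 88.4 with PLX7904, and 76.8 with DMSO, with a log2 difference of -0.28 (-1.15 to 0.59). When its 3 probe sets were averaged, the log2 difference from DMSO was -0.15 (adjusted p = 0.868).

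Of the other hemidesmosome genes, Col17a1 passed against DMSO and Dst did not, and the difference between them was not tested. Col17a1 (1418799_a_at) read 8558 and 8810 with vemurafenib, 7115 and 7792 with PLX7904, and 6867 with DMSO. All 4 treated arrays were above DMSO and the vemurafenib arrays were highest. It rose 1.26-fold over DMSO (1.11 to 1.44, limma adjusted p = 0.0363). That call is close to the threshold and held in 11 of 17 other settings. It ended without limma's intensity trend (adjusted p = 0.27), with averaged probe sets (adjusted p = 0.0584), without the signal filter (adjusted p = 0.106), after quantile normalization (log2 0.26, adjusted p = 0.0902), cyclic loess (0.26, 0.101 as adjusted p) and without vemurafenib replicate 2 (0.32, adjusted p = 0.0795). Bright probe sets in general read slightly higher with vemurafenib: the brightest 10% had a median log2 difference of 0.08 from DMSO, against 0.34 for Col17a1. After quantile normalization Lama3 stood at a log2 difference of 1.17 and Lamb3 at 1.16, and both passed. Itga6 passed too, but its brightest probe set, 1422445_at, fell from 0.48 to 0.34, and to 0.35 with cyclic loess. Its 1422444_at fell from 0.73 to 0.63 with quantile normalization.

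Dst did not pass with any of its 4 probe sets. The brightest, 1421117_at, read 2067 and 2071 with vemurafenib, 2016 and 2247 with PLX7904, and 2517 with DMSO. All 4 treated arrays were below DMSO, at 1.22 times lower with vemurafenib (1.04 to 1.43, limma adjusted p = 0.139). Probe set 1450119_at read 1488 and 1428 with vemurafenib, 1522 and 1532 with PLX7904, and 1685 with DMSO, also with every treated array below DMSO (log2 -0.21, adjusted p = 0.269). Probe set 1423626_at read 956 and 1002 with vemurafenib, 879 and 833 with PLX7904, and 943 with DMSO. Its log2 difference from DMSO was 0.05 (-0.21 to 0.32). The dimmest, 1421276_a_at, read 198 and 150 with vemurafenib, 137 and 111 with PLX7904, and 135 with DMSO, a log2 difference of 0.34 (-0.27 to 0.96). The sign thus varied among the probe sets of Dst, while their intervals all overlapped. The Dst gene makes several products, of which BPAG1e is the epithelial one, and the annotation used here does not say which product a probe set reads.

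The second probe set of Lama3, 1444860_at, was too dim to be tested, with a mean signal of 12.9. It read 4.99 and 10.6 with vemurafenib, 33.0 and 21.1 with PLX7904, and 3.93 with DMSO. It was highest with PLX7904, unlike the bright probe set, and no detection call says whether any of these signals exceeded background. When both probe sets were averaged, the log2 difference of Lama3 from DMSO was 0.90 (limma adjusted p = 0.0571) and that between vemurafenib and PLX7904 turned to -0.17 (adjusted p = 0.602).

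**Figure D2:**
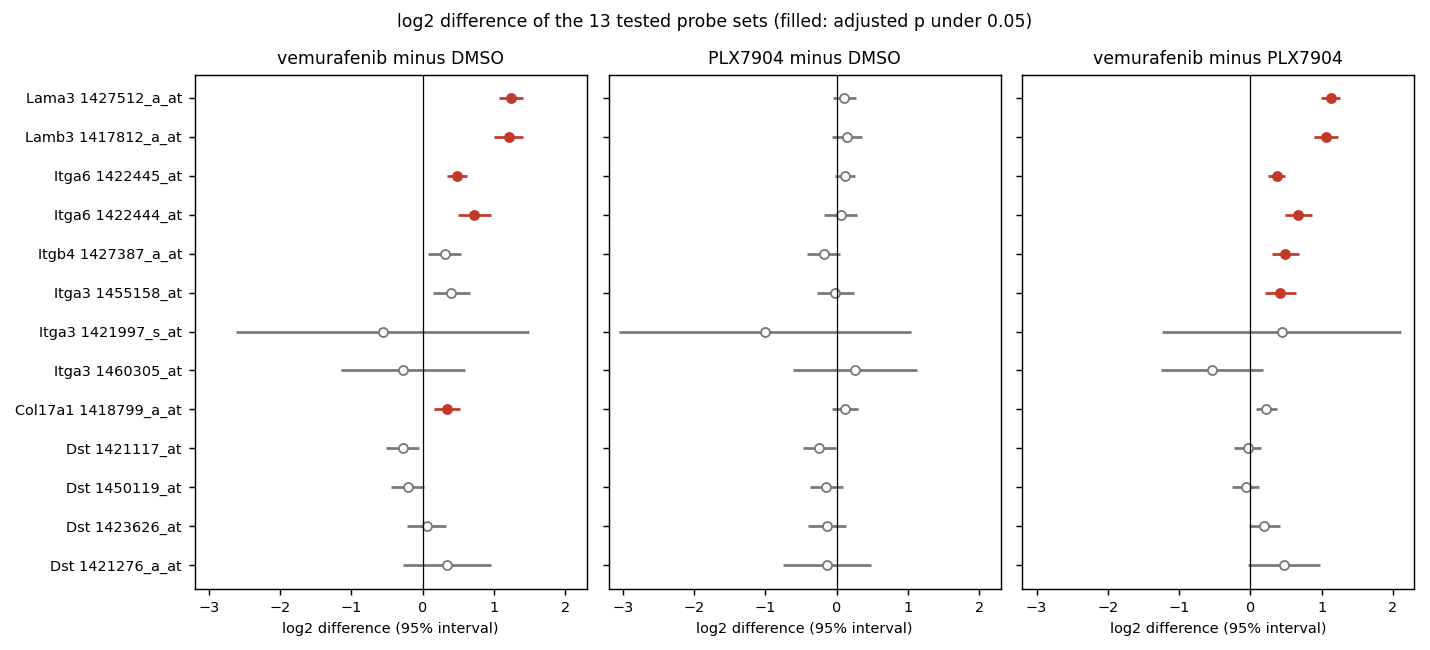
Log2 difference (horizontal axes) of the 13 tested probe sets in 3 comparisons, with 95% intervals as bars and filled red points for an adjusted p under 0.05. Lama3 and Lamb3 lie above 1 in both comparisons of vemurafenib and near 0 between PLX7904 and DMSO.

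PLX7904 was set against DMSO to ask whether a BRAF inhibitor intended not to raise MAPK signalling moves the same genes. With limma, 0 of the 13 probe sets passed, as did 0% of all probe sets tested in either direction, with 1190 of 19755 at an unadjusted p under 0.05. Lama3 by its bright probe set was 1.08-fold (0.96 to 1.21) and Lamb3 1.11-fold (0.96 to 1.28). For these probe sets the intervals allow rises of at most 1.21-fold and 1.28-fold. The dim 1444860_at of Lama3, not tested, was at log2 2.04, and the mean of both Lama3 probe sets was at 1.07 and did not pass. Itga6 was 1.08-fold (0.98 to 1.20) and 1.04-fold (0.89 to 1.22) by its 2 probe sets, and Col17a1 1.08-fold (0.96 to 1.23). Itgb4 was 1.13 times lower (0.96 to 1.33). The difference that came nearest among the members was Dst 1421117_at, 1.18 times lower (1.01 to 1.39, limma adjusted p = 0.804). Of the 13 probe sets 6 were above 0, and the median log2 difference was -0.02, as it was over all probe sets. Groups did not overlap for 9 of the 13, against 66.3% of all probe sets.

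The compounds were compared directly, as 1 pair at the same dose and time. Lama3 and Lamb3 were 2.18-fold (1.98 to 2.39, limma adjusted p = 1.38e-05) and 2.08-fold (1.85 to 2.34, adjusted p = 7.48e-05) higher with vemurafenib than with PLX7904. All 3 integrin genes were higher by their brightest probe set: Itga6 at 1.29-fold (1.19 to 1.40), Itgb4 at 1.41-fold (1.23 to 1.60, adjusted p = 0.00724) and Itga3 at 1.34-fold (1.15 to 1.55, adjusted p = 0.0237). The other probe set of Itga6 gave 1.59-fold (1.39 to 1.81). In all, 6 of 13 probe sets, from 5 of 7 genes, passed as higher and 0 as lower, against 9.17% of all probe sets called and 4.63% called higher. Higher calls made up 50.5% of all calls, and 62.5% with median centring. Arrays of the 2 compounds did not overlap for 11 of the 13, against 53.4% of all probe sets. The median log2 difference was 0.42, against -0.04 over all probe sets. This comparison and the one with DMSO use the same vemurafenib arrays and are not independent.

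Col17a1 was 1.17-fold higher with vemurafenib than with PLX7904 (1.05 to 1.29) and did not pass (limma adjusted p = 0.0698). It passed with median centring (log2 0.26, adjusted p = 0.0369) and without PLX7904 replicate 2 (0.29, adjusted p = 0.0404). The intervals of Dst ran from -0.23 to 0.15 for 1421117_at, -0.26 to 0.12 for 1450119_at, -0.03 to 0.41 for 1423626_at and -0.03 to 0.98 for 1421276_a_at on the log2 scale, so that differences of the size seen in Lama3 lay outside all 4. The probe sets of Itga3 disagreed here. The interval of 1455158_at (log2 0.21 to 0.63) did not overlap that of 1460305_at (-1.25 to 0.17), whose vemurafenib arrays were both below its PLX7904 arrays. Probe set 1421997_s_at gave 0.44 (-1.24 to 2.11). The call of 1455158_at ended without PLX7904 replicate 2 (log2 0.32, adjusted p = 0.0914) and with the mean of the 3 probe sets (0.11, adjusted p = 0.882).

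**Figure D3:**
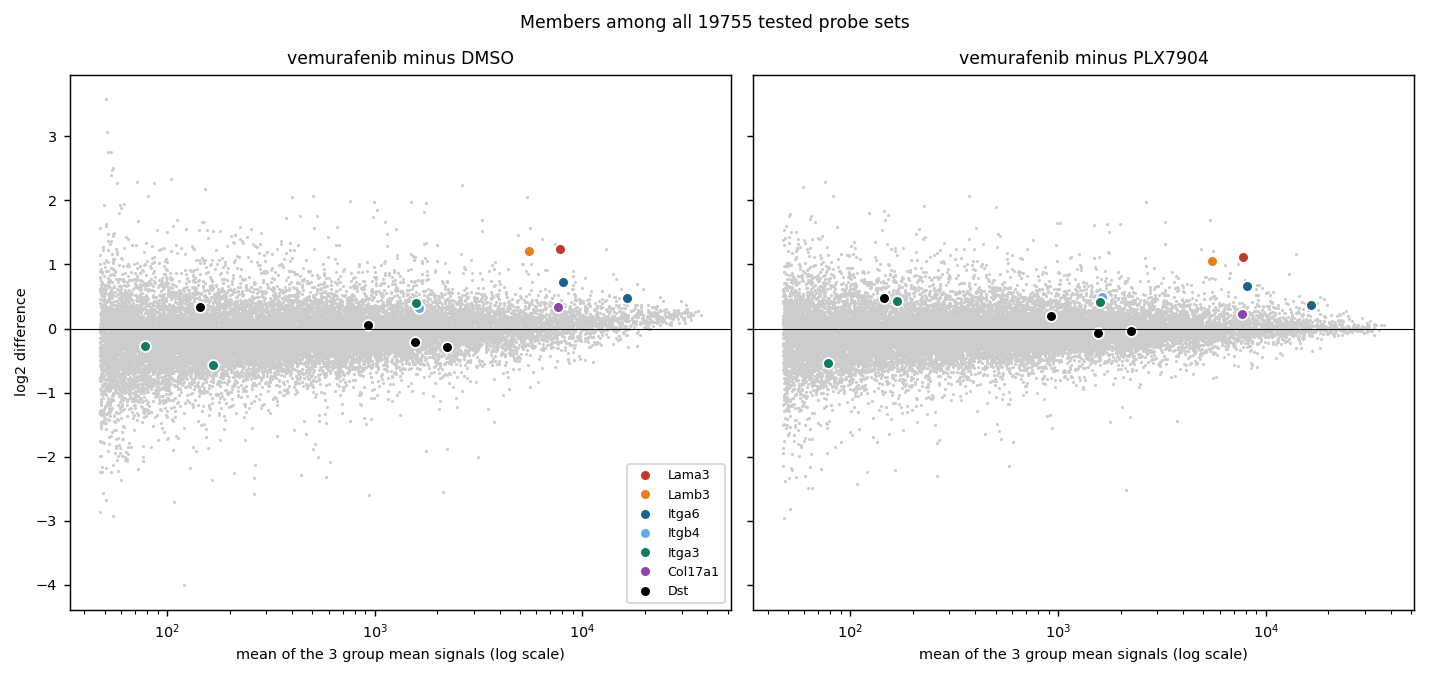
Log2 difference against mean signal (log scale) for all 19755 tested probe sets (grey) with the 13 of the 7 genes in colour, for vemurafenib minus DMSO and vemurafenib minus PLX7904. Lama3 and Lamb3 stand at 1.23 and 1.21 over DMSO among bright probe sets whose median is 0.08, while the 4 probe sets of Dst lie within the cloud.

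The log2 differences of the laminin chains from DMSO exceeded those of the other members. Upper bounds were taken for the tested probe sets of the members other than Lama3 and Lamb3. The lower bound of Lamb3 (1.00) lay above all of these except that of 1421997_s_at of Itga3 (1.49). The highest of the rest was 0.96, for Itga6 1422444_at and for Dst 1421276_a_at. Between the compounds the lower bound of Lamb3 (0.89) lay above all but those of 1421997_s_at (2.11) and of Dst 1421276_a_at (0.98). The difference between members was not tested.

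Lama3 and Lamb3 had nearly the same pattern over the 5 arrays. The root mean square distance between their log2 values, each centred on its own mean of the 3 group means, was 0.05, and 2 of 10845 other genes were nearer to Lama3 than Lamb3 was. Nearest to Lama3 were Fgd6 (a guanine nucleotide exchange factor), Sh3bgrl2, Elovl4 (an elongase of very long chain fatty acids), Scin (an actin-severing protein) and Angptl4 (a secreted inhibitor of lipoprotein lipase), at distances of 0.03 to 0.09. Nearest to Lamb3 were Fgd6, Scin, Elovl4, Mcpt8 (a protease) and Egr3 (an early growth response transcription factor), at 0.05 to 0.08. These genes were 1.12 to 1.43 log2 units above DMSO with vemurafenib. They were chosen by this likeness from 5 arrays, which is a description.

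**Figure D4:**
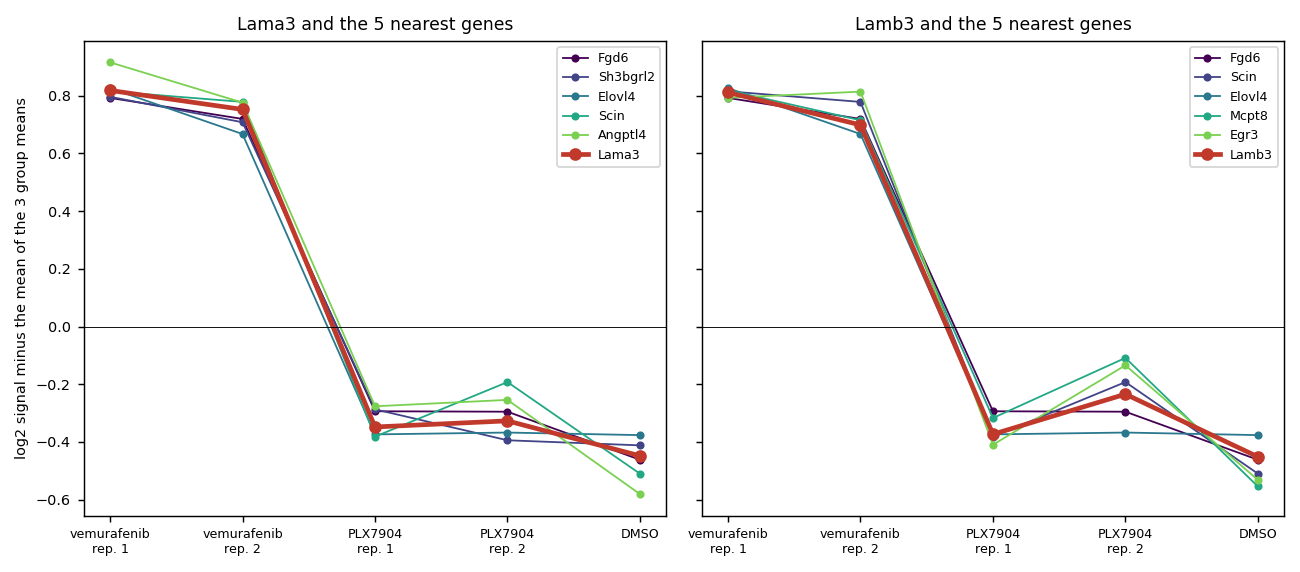
Log2 signal on each array, centred on the mean of the 3 group means (vertical axis), for Lama3 and for Lamb3 (thick red) with the 5 genes nearest to each. All lines are high on both vemurafenib arrays and low on the PLX7904 and DMSO arrays.

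Genes linked to these structures or to cell adhesion were taken as lists, and not all of them encode parts of the hemidesmosome or of laminin-332. For these, 1 probe set was used per gene, the one with the highest mean, with p-values still adjusted over all probe sets, and 8.39% of 10852 genes passed between vemurafenib and DMSO, 11.1% between the compounds and 0% between PLX7904 and DMSO. Among 12 measured hemidesmosome and adhesion partners, 2 were higher with vemurafenib than with DMSO and 0 lower. Itgb1, the partner chain of Itga3, read 6249 and 6817 with vemurafenib, 4586 and 4949 with PLX7904, and 4921 with DMSO. It rose 1.33-fold over DMSO (1.15 to 1.53, limma adjusted p = 0.0255). Pxn, the focal adhesion adaptor paxillin, rose 1.25-fold (1.11 to 1.41, adjusted p = 0.0312). Plec, the plakin that binds the Itgb4 chain, was 1.21-fold and did not pass against DMSO (adjusted p = 0.0841). Cd151, a tetraspanin of the hemidesmosome, was at log2 0.16 (adjusted p = 0.257) and Trp63 at 0.17 (adjusted p = 0.282). The median of the list was 0.21, against -0.05 over all genes tested.

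Between the compounds 5 of the 12 partners were higher with vemurafenib and 1 lower. Tln1, the integrin activator talin, was 1.46-fold higher (1.23 to 1.74), Itgb1 1.37-fold (1.22 to 1.54), Flna, the actin crosslinker filamin A, 1.22-fold (1.09 to 1.37) and Plec 1.22-fold (1.09 to 1.36). Krt5, the basal keratin whose filaments attach to hemidesmosomes, was 1.18 times lower (1.08 to 1.28, limma adjusted p = 0.027), while its pairing keratin Krt14 was at log2 -0.02 and did not pass (adjusted p = 0.85). Of 8 tested basement membrane genes 0 passed against DMSO. Between the compounds 1 did, Col7a1, the collagen of the anchoring fibrils below laminin-332, which was 1.37-fold higher with vemurafenib (1.17 to 1.61, adjusted p = 0.0231). Their medians were -0.15 against DMSO and -0.09 between the compounds.

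Other laminin chains did not pass in any comparison, with 4 of 8 genes bright enough to be tested. Lamb1, a beta chain of other laminins, read 4248 and 4145 with vemurafenib, 3441 and 3984 with PLX7904, and 3504 with DMSO (1.20-fold over DMSO, limma adjusted p = 0.164). Lama5, the alpha chain of the other epidermal laminin, was at log2 -0.42 (adjusted p = 0.136). Of the proteases that can process laminin-332, Bmp1 (log2 0.07) and Mmp14 (-0.24) were tested and did not pass against DMSO. With PLX7904 no gene of these 4 lists passed against DMSO.

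Some markers also differed between vemurafenib and DMSO. Of the 9 keratinocyte markers 3 were higher than with DMSO, the simple keratins Krt18 (1.62-fold) and Krt8 (1.23-fold) and the adhesion molecule Epcam (1.51-fold). Of 7 fibroblast markers 1 was above the signal filter. That gene, Pdgfra, a growth factor receptor, read 264 and 231 with vemurafenib, 138 and 132 with PLX7904, and 83.3 with DMSO, and was higher than with DMSO (limma adjusted p = 0.00539) and with PLX7904 (adjusted p = 0.0227). The summed signal of the 7 was 398 to 417 with vemurafenib, 202 to 264 with PLX7904 and 170 with DMSO. Pdgfra alone gave 264 of the 417 and 231 of the 398, and the other 6 genes were below the filter. Of 5 melanocyte markers 1, Pmel, was above the filter and was higher than with DMSO (85.5 and 82.8 with vemurafenib, 72.2 and 60.8 with PLX7904, and 12.4 with DMSO). The summed signal of the melanocyte list was 135 to 182 with vemurafenib, 121 to 224 with PLX7904 and 51.4 with DMSO, with 4 of its genes below the filter. The part of these markers in the laminin and integrin differences was not tested.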

How the data were processed

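Total RNA of B9 cells was measured on 5 Affymetrix 3′ arrays with biotin-labelled targets. The deposited values are intensity on a linear scale, made with MAS5 per the submitters' processing notes (version not given in the sources used here). With 2% trimmed at either end, the 5 arrays have equal mean signals. No detection calls were used. Of 45101 probe sets, 34945 had 1 gene symbol in the platform annotation, 932 several and 9160 none, and 64 were controls. None of those with several named a member.

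The log2 of the signal plus 3.34 (the 10th percentile of all values) was fitted with 3 group means over 5 arrays in limma 3.58.1 (R 4.3.3; lmFit and eBayes, prior variance trended on mean level; 2 residual and 7.82 prior degrees of freedom). Tests were two-sided, per probe set, with Benjamini-Hochberg adjustment in each comparison over those whose mean signal reached 47.4, the median of all values. Named list genes are those that passed, at most 4 per list and direction; other list genes named were chosen after their values were seen. Members, lists and tests were chosen with earlier results of these data known. Figures used Python 3.11.15 and matplotlib 3.10.9.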

Additional observations from a re-analysis of the deposited data

How the results depend on the processing

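The 3 comparisons were repeated under other pseudocounts, filters, normalizations, variance models, choices of probe set, a replicate block and without each treated array. Wherever it was tested, Lamb3 passed both comparisons of vemurafenib in all of these except without limma's intensity trend. Without the trend 0 member probe sets passed in any comparison, and 0 of 19755 probe sets passed between vemurafenib and DMSO or between the compounds, with 3624 and 3980 at an unadjusted p under 0.05. Lama3 had adjusted p = 0.105 against DMSO in that setting and Lamb3 0.115 as its adjusted p, at unchanged differences. When the probe sets of a gene were averaged, 2 of 7 genes passed against DMSO and 3 between the compounds, against 4 and 5, and Lama3 turned to -0.173 between the compounds through its dim probe set. Without probe sets of suffix x, s or a, 3 member probe sets passed in each of these comparisons, since those of Lama3, Lamb3, Col17a1 and Itgb4 carry such a suffix and 7 were tested. Leaving out a treated array gave 5 to 6 against DMSO, 6 to 7 between the compounds, and 0 for PLX7904. Without either vemurafenib array limma's prior degrees of freedom were 335 to 418, so that its p-values there were very small. There 1421997_s_at of Itga3 passed between the compounds without replicate 1 (1.48) and against DMSO without replicate 2 (-1.61).

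Over all probe sets, 1413 passed between vemurafenib and DMSO and 1812 between the compounds. These became 743 and 1099 without the filter, 443 and 660 with averaged probe sets, and 1042 between the compounds without PLX7904 replicate 2. With median centring 72.4% of calls against DMSO were higher in place of 52.3%, and 62.5% in place of 50.5% between the compounds. For PLX7904 against DMSO the count of 0 became 2 without suffix x, s or a, 91 and 81 without vemurafenib replicate 1 or 2, and 6 without PLX7904 replicate 2. Deviations of replicate 1 from its group mean did not correlate between the compounds over all tested probe sets (-0.0033). The value shows no shared shift by replicate number and cannot tell whether cultures were handled in pairs. With the replicate block 1895, 7 and 2332 probe sets passed against DMSO with vemurafenib, with PLX7904 and between the compounds. In that block 6 and 7 member probe sets passed in the comparisons of vemurafenib, where Itga3 1455158_at (log2 0.44, adjusted p = 0.0427) and Col17a1 (0.22, adjusted p = 0.036) joined. DMSO could not be left out of its own comparisons.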
